A study of Mus musculus with 12 samples.

Results

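Collagens are the triple-helical proteins of the extracellular matrix, and 44 of the 40853 gene symbols in the count tables belong to the family. The members were taken by symbol, every Col gene with a chain number, in both cell types. The family was chosen from the astrocyte comparison, because the RNA of Col16a1, Col5a3 and Col11a2 was lower in astrocytes of Kpna4 knockout mice. That comparison is therefore described below without a test.

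RNA was measured in microglia and astrocytes sorted from the brains of mice aged 8 to 9 weeks. The mice were WT or KPNA4 KO, Kpna4 being the gene of a nuclear import receptor of the importin alpha family, and all of them had received lipopolysaccharide (LPS, a bacterial cell wall component) intraperitoneally at 1 mg/kg, 20 h before dissection. The 4 groups were microglia WT, microglia KPNA4 KO, astrocytes WT and astrocytes KPNA4 KO, each with 3 libraries from 3 mice. The 6 mice, 3 per genotype, each gave 1 library of either cell type, so the values of both cell types share animals. Mice without LPS were not analysed here, and how the knockout was made is not stated in the sources at hand.

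Collagen chains are made in the endoplasmic reticulum, where prolines and lysines are hydroxylated and 3 chains wind into a helix before secretion. Fibrillar collagens form the banded fibres of connective tissue, the FACIT collagens sit on the surface of such fibres, and collagen IV is the network of basement membranes. In brain, basement membranes lie between vessels and astrocyte endfeet and under the pia, while the parenchyma itself holds little fibrillar collagen. The main known sources of collagen there are fibroblasts, mural cells and endothelial cells of vessels and meninges, with a contribution of astrocytes to the basement membrane.

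The microglia libraries held between 10.3 M and 14.5 M estimated counts, and the astrocyte libraries between 10.7 M and 15.6 M. The sorted cell types carried their markers. The 10 microglia markers, such as Tmem119 and P2ry12, summed to between 13600 and 17200 CPM (the estimated count divided by the library total in M) in microglia and to between 202 and 576 CPM in astrocytes. The 10 astrocyte markers, such as Aldh1l1 and Aqp4, summed to between 15700 and 21000 CPM in astrocytes and to between 334 and 726 CPM in microglia. Kpna4 itself had 67.8, 96.4 and 89.0 CPM in WT microglia and 78.6, 68.5 and 59.8 CPM in KO microglia. In astrocytes Kpna4 had 40.1, 51.1 and 57.6 CPM in WT and 69.0, 43.8 and 80.2 CPM in KO libraries. Kpna4 RNA thus overlapped between genotypes in both cell types. Which part of the gene is deleted is not given, so counts over the whole gene do not check the labels. The KO astrocyte library of replicate 2 stood apart from the others. It had the highest share of 8 abundant non-coding RNAs, 39.5% of its counts against 26.2% to 32.0% in the other 5 astrocyte libraries, and the astrocyte genotype values are given with and without it.

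The 3 genes that led to the choice of the family are a FACIT collagen and a pair of minor fibrillar chains. Col16a1 encodes the chain of collagen XVI, Col5a3 a chain of collagen V, and Col11a2 a chain of collagen XI, which with collagen V sets the diameter of fibrils. The 250 bases before the RefSeq start site of each gene are shown because these members led to the choice of the family. The windows are from GRCm38.p6, which is not the GRCm39 build of the counts. Col16a1 lies on the plus strand (chr4:130047590-130047839), Col5a3 on the minus strand (chr9:20815068-20815317) and Col11a2 on the plus strand (chr17:34038888-34039137). Each line reads 5′ to 3′ towards the gene, and capitals mark matches to 4 promoter motifs on either strand. The GC box was searched as GGGCGG and the TATA box as TATAAA. The CCAAT box was searched by the letters of its name, and the AP-1 site as TGANTCA. No matches overlapped in these windows.
Col16a1: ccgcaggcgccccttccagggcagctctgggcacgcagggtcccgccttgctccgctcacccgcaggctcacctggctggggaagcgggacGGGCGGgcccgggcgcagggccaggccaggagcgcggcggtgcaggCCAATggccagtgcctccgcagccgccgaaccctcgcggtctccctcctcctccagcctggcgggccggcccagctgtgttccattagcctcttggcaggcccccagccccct
Col5a3: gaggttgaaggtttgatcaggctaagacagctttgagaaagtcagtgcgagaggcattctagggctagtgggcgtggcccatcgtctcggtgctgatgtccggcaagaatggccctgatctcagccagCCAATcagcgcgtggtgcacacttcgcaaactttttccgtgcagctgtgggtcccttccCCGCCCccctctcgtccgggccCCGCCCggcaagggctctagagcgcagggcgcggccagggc
Col11a2: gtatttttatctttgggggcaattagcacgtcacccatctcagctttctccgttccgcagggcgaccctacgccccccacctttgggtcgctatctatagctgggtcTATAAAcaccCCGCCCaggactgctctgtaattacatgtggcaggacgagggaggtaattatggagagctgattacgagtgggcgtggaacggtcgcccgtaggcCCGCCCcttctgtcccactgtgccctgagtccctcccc

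The 3 windows shared GC boxes but no single arrangement of them. The Col16a1 window held 1 GC box and 1 CCAAT box, and 75.6% of its bases were G or C. The Col5a3 window held 2 GC boxes and 1 CCAAT box, with 62.8% G or C. The Col11a2 window held 2 GC boxes and 1 TATA box match, 143 bases before the start site, with 57.6% G or C. None of the 3 held the AP-1 letters, and a match or its absence says only which letters are in the window. RefSeq windows were found for 35 of the 44 members, with 38 windows in all because some genes have more than 1 start. A GC box was found in 57.9% of these windows against 32.7% of the 32851 windows of all genes. For the CCAAT box the shares were 34.2% and 33.8%, for the TATA box 13.2% and 12.4%, and for the AP-1 site 2.63% and 6.75%. The median share of G or C was 59.0% in the collagen windows and 52.4% in all windows.

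In WT astrocytes Col16a1 had 78.6, 71.1 and 67.6 CPM, and in KO astrocytes 34.5, 24.0 and 32.2 CPM. Col5a3 had 78.3, 57.0 and 68.0 CPM in WT and 34.8, 15 and 33.1 CPM in KO astrocytes. Col11a2 had 62.6, 46.3 and 38.9 CPM in WT and 26.0, 14.8 and 21.3 CPM in KO astrocytes. Every KO library lay below every WT library for all 3 genes. On the log2 scale, KO minus WT in astrocytes was -1.16 (SE 0.22) for Col16a1, -1.22 (SE 0.27) for Col5a3 and -1.16 (SE 0.28) for Col11a2. Without KO replicate 2 the log2 fold changes were -1.13, -1.004 and -1.08 in the same order. These values chose the family and are given as a description.

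**Figure D1:**
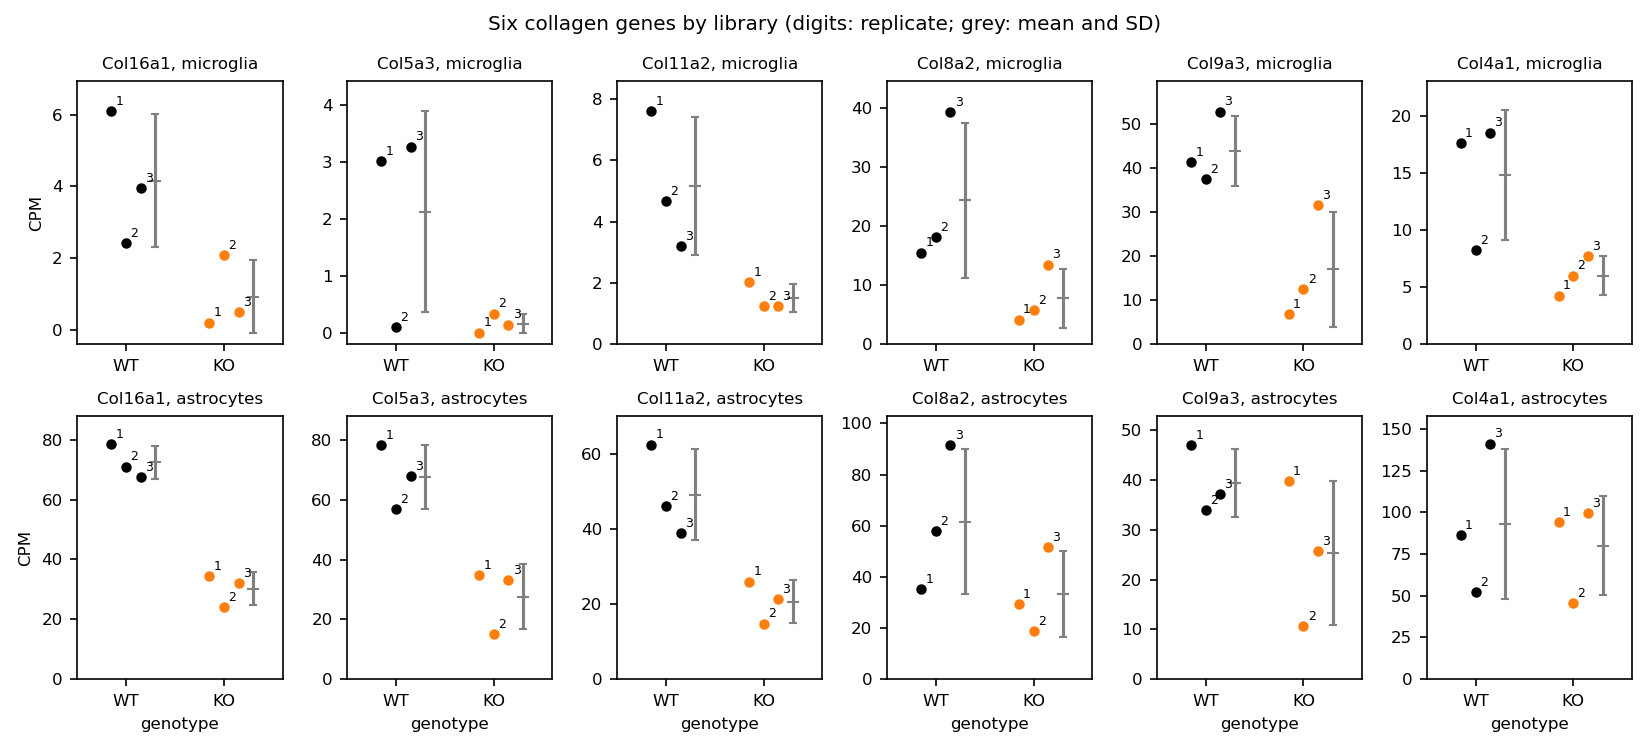
CPM (linear axis) of 6 collagen genes in WT (black) and KPNA4 KO (orange) libraries of microglia (upper row) and astrocytes (lower row), with the replicate number beside each point and the mean and SD of 3 libraries in grey. KO libraries lie below WT libraries in astrocytes for Col16a1, Col5a3 and Col11a2, and in microglia for Col16a1, Col11a2, Col8a2, Col9a3 and Col4a1.

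Of the 39 members that passed the filter on low counts in astrocytes, 29 had a log2 fold change of KO over WT below 0 and 10 above 0, with a median of -0.39. Over all 15755 genes tested the median was -0.0068 and 50.6% lay below 0. KO replicate 2 was the lowest of the 6 astrocyte libraries for 28 of the 39 members, and without it 21 of 39 lay below 0 with a median of -0.09. All 3 KO libraries lay below all 3 WT libraries in 8 members (20.5% of 39 tested), against 5.74% of all genes, and above them in 0 members, against 2.39% of all genes. Without KO replicate 2 the same 8 members had both KO libraries below all WT libraries, against 7.94% of all genes, and 4 members lay above, against 7.53%. The 8 were Col16a1, Col5a3 and Col11a2, together with Col9a1, Col9a2, Col12a1, Col18a1 and Col2a1. The comparison was used to choose the family, so nothing is read from these shares.

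Among the other 5 of these members were chains of cartilage-type fibrils. Col9a2, a chain of collagen IX, had 18.9, 21.4 and 17.9 CPM in WT astrocytes and 9.86, 9.12 and 11.1 CPM in KO astrocytes, a log2 fold change of -0.84 (SE 0.33), and -0.90 (SE 0.346) without KO replicate 2. Its partner Col9a1 had 1.15, 1.46 and 1.3 CPM in WT and 0, 0 and 0.642 CPM in KO astrocytes. The log2 fold change of Col9a1 was -2.45 (SE 1.72), on 16, 18 and 19 counts in WT and 0, 0 and 10 in KO. Col2a1, the main chain of cartilage fibrils, had 3.45, 3.42 and 3.49 CPM in WT and 0.085, 0.372 and 1.6 CPM in KO astrocytes. That is a log2 fold change of -2.21 (SE 1.19), on 48, 42 and 51 counts in WT and 1, 4 and 25 in KO. Both genes thus rest on few counts. Collagen II, IX and XI are known to build the same mixed fibril in cartilage. Among these chains Col11a1 lay at -0.04 (SE 0.30) and Col9a3 at -0.58 (SE 0.35) on the log2 scale, and their WT and KO astrocyte libraries overlapped. The major collagen IV chains also overlapped between genotypes. Col4a1 had 86.3, 52.0 and 141 CPM in WT and 94.3, 45.8 and 99.7 CPM in KO astrocytes. Col1a2, a chain of collagen I, had 59.4, 36.2 and 57.8 CPM in WT and 49.6, 33.8 and 65.0 CPM in KO astrocytes.

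**Figure D2:**
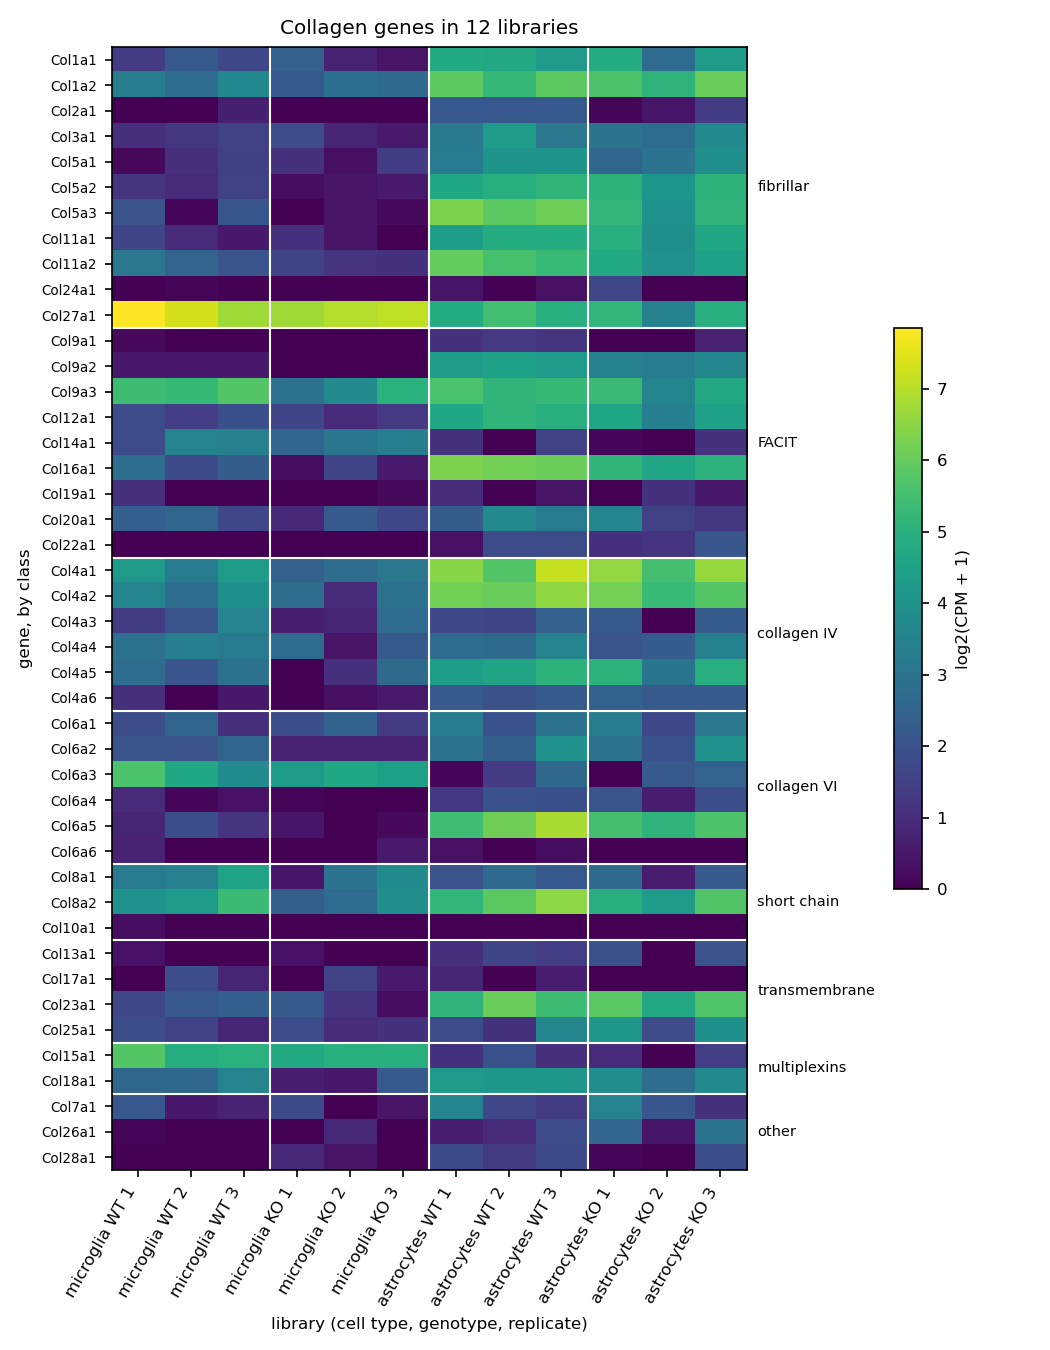
Level of each of the 44 collagen genes (rows, by class) in each of the 12 libraries (columns), as log2(CPM + 1). Most rows are brighter in the 6 astrocyte libraries, while Col27a1, Col15a1, Col6a3 and Col14a1 are brighter in the 6 microglia libraries.

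The cell types were compared next, a contrast that crosses the genotypes and was not used to choose the family. Collagen RNA was higher in astrocytes for most classes, and a few members went the other way. Of the 41 members that passed the filter on low counts, 30 were called higher in astrocytes and 4 lower, at an adjusted p under 0.05 with edgeR's quasi-likelihood test and Benjamini-Hochberg adjustment over 17294 genes. The shares called over all genes were 36.4% higher and 28.2% lower. Of the 41 members, 12 pass the filter on low counts only through their astrocyte libraries, so a higher level there was built into their being tested, and all 12 were called higher. They were Col13a1, Col22a1, Col26a1, Col28a1, Col2a1, Col4a6, Col5a3, Col6a4, Col6a5, Col7a1, Col9a1 and Col9a2. Of the 27 members that pass the filter in each cell type on its own, 18 (66.7%) were called higher and 4 (14.8%) lower, against 31.8% higher and 31.8% lower among the 13088 genes that do so. The median log2 fold change of astrocytes over microglia was 2.63 for these 27 members and -0.03 for these genes. Col17a1 and Col19a1 pass in neither cell type alone and were not called. With a minimum count of 50, 22 members were called higher, and 9 of the 30 were not made because those genes were no longer tested. With the mouse as a block, which pairs the libraries of each animal, 27 members were called higher and 4 lower, without Col28a1, Col6a1 and Col9a1. Calls of Col6a1, Col7a1, Col9a1, Col13a1, Col25a1 and Col28a1 were each lost when 1 mouse was left out, and 24 members were called higher without WT replicate 3. Col10a1, Col24a1 and Col6a6 were too low to be tested, with at most 9 counts in a microglia library and 26 in an astrocyte library. In bulk RNA of sorted cells, fewer cells that make a collagen and less of its RNA per cell cannot be told apart.

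Fibrillar collagens were called higher in astrocytes in 9 of 10 tested, with Col27a1 the exception. Among the 9, Col2a1 and Col5a3 pass the filter on low counts only through their astrocyte libraries. Of all genes that pass in each cell type on its own, 31.8% were called higher. Col5a2, the second chain of collagen V, ranged from 0.194 over a median of 0.690 to 1.90 CPM in microglia and from 16.6 over 31.0 to 33.8 CPM in astrocytes. Its log2 fold change was 5.60 (SE 0.32, adjusted p = 1.77e-09 by edgeR). Col1a2 ranged from 3.49 over 6.05 to 11.8 CPM in microglia and from 33.8 over 53.7 to 65.0 CPM in astrocytes, with a log2 fold change of 3.16 (SE 0.25, adjusted p = 4.93e-08 by edgeR). Col5a3 ranged from 0 over 0.236 to 3.27 CPM in microglia and from 15 over 45.9 to 78.3 CPM in astrocytes. Col11a2 ranged from 1.24 over 2.61 to 7.61 CPM in microglia and from 14.8 over 32.5 to 62.6 CPM in astrocytes, with a log2 fold change of 3.78 (SE 0.30, adjusted p = 4.09e-08 by edgeR). None of these 4 genes overlapped between the cell types in any library.

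FACIT collagens were called higher in astrocytes in 5 of 9 tested and lower in 1. Of the 5, Col9a1, Col9a2 and Col22a1 pass the filter only through their astrocyte libraries, and Col12a1 and Col16a1 pass in each cell type. Col9a2 ranged from 0 to 0.456 CPM in microglia and from 9.12 over 14.5 to 21.4 CPM in astrocytes. Its 3 KO microglia libraries held 0 counts, and with these set to a floor of 3 counts per library it was at least 41.9-fold higher in astrocytes. Col12a1, the chain of collagen XII in dense connective tissue, was higher by 3.89 on the log2 scale (SE 0.32, adjusted p = 6.05e-08 by edgeR). Col16a1 was higher by 4.83 (SE 0.40, adjusted p = 7.90e-08 by edgeR). Col22a1 had 0 counts in all 6 microglia libraries and 0.288 to 3.27 CPM in astrocytes. Set against the same floor, 0.245 CPM, it was at least 7.43-fold higher in astrocytes. Col9a3 stood apart from its partners in collagen IX. It had 6.78 to 52.7 CPM in microglia and 10.7 to 47.1 CPM in astrocytes, and its log2 fold change of 0.45 (SE 0.33) was not called (adjusted p = 0.247 by edgeR).

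**Figure D3:**
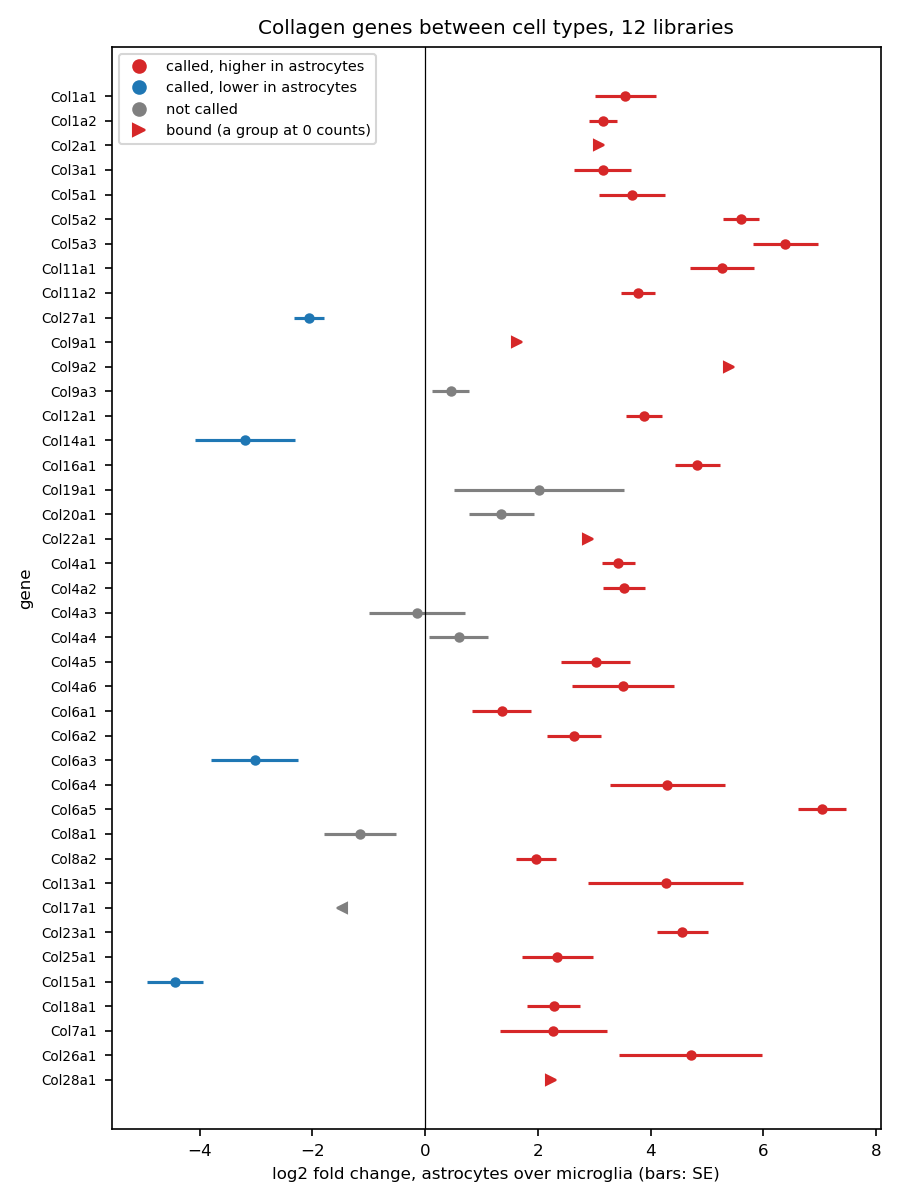
Log2 fold change of astrocytes over microglia (points, bars for the SE, 12 libraries) for the 41 collagen genes tested, in red where called higher in astrocytes, blue where called lower and grey where not called, with genes that had 0 counts in all 3 libraries of a group drawn as triangles at their bound. 30 genes lie to the right as called higher and 4, Col15a1, Col6a3, Col14a1 and Col27a1, lie to the left as called lower.

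Among the basement membrane chains, Col4a1, Col4a2, Col4a5 and Col4a6 were called higher in astrocytes, and Col4a3 and Col4a4 were not called. Col4a6 passes the filter on low counts only through its astrocyte libraries. Col4a1 ranged from 4.26 over 7.98 to 18.6 CPM in microglia and from 45.8 over 90.3 to 141 CPM in astrocytes, a log2 fold change of 3.42 (SE 0.29, adjusted p = 1.03e-07 by edgeR). Col4a3 and Col4a4, the chains of the kidney glomerulus network, had log2 fold changes of -0.14 (SE 0.86) and 0.59 (SE 0.53). Collagen IV genes sit head to head in pairs on opposite strands. In RefSeq (GRCm38.p6) the start sites of Col4a1 and Col4a2 on chromosome 8 lie 21 bases apart, and the transcripts overlap by 22 bases. The cDNA kit named in the labels keeps no strand, so reads in that overlap could belong to either gene. The ratio of Col4a1 to Col4a2 per coding length ranged from 0.811 to 1.91 in astrocytes, with a median of 1.28. In microglia it ranged from 0.750 to 6.69, with a median of 1.40. The highest ratio was that of KO replicate 2, which rested on 72 counts for Col4a1 and 11 for Col4a2.

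Collagen VI showed both directions among its chains. Col6a5 ranged from 0 over 0.571 to 2.69 CPM in microglia and from 33.3 over 47.6 to 114 CPM in astrocytes. Its log2 fold change was 7.03 (SE 0.42). Like Col6a4, it passes the filter on low counts only through its astrocyte libraries, so a higher level there was built in. Col6a1 and Col6a2, the chains that assemble with Col6a3 into beaded filaments, were called higher in astrocytes by 1.36 (SE 0.52, adjusted p = 0.0319 by edgeR) and 2.63 (SE 0.48, adjusted p = 0.000214 by edgeR). Col6a3 went the other way. It ranged from 12.9 over 22.5 to 48.9 CPM in microglia and from 0 over 2.54 to 5.33 CPM in astrocytes, a log2 fold change of -3.02 (SE 0.77, adjusted p = 0.00316 by edgeR). Col6a4, Col6a5 and Col6a6 are close paralogs, so how their reads were divided is uncertain.

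Beside Col6a3, the members called lower in astrocytes were Col27a1, Col15a1 and Col14a1. Col27a1, a fibrillar collagen of cartilage, ranged from 106 over 131 to 230 CPM in microglia and from 9.87 over 29.7 to 43.2 CPM in astrocytes, a log2 fold change of -2.06 (SE 0.26, adjusted p = 7.61e-06 by edgeR). Col15a1, a multiplexin of basement membrane zones, ranged from 26.1 over 29.9 to 52.5 CPM in microglia and from 0 over 1.16 to 2.93 CPM in astrocytes, a log2 fold change of -4.44 (SE 0.50, adjusted p = 1.93e-06 by edgeR). Col14a1, a FACIT collagen, had 2.56 to 10.4 CPM in microglia and 0 to 1.91 CPM in astrocytes, with a log2 fold change of -3.20 (SE 0.89, adjusted p = 0.00572 by edgeR). No microglia library overlapped an astrocyte library for any of these 4 genes, Col6a3 included. Col18a1, the other multiplexin and the source of endostatin, was called higher in astrocytes by 2.28 (SE 0.47, adjusted p = 0.000651 by edgeR).

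Levels were compared between genes per coding length, as mean CPM per 1000 coding bases over 6 libraries. In astrocytes the order was Col23a1 with 28.5 (SD 9.36), Col8a2 with 22.6 (SD 12.4), Col4a1 with 17.3 (SD 6.96) and Col9a3 with 15.9 (SD 6.23). Col4a2 followed with 12.8 (SD 3.62), Col1a2 with 12.2 (SD 3.12), Col16a1 with 10.8 (SD 4.99) and Col5a3 with 9.14 (SD 4.60). Each neighbour in this order differed from the next by less than its SD. Col23a1 is a transmembrane collagen, and Col8a2 is a short chain collagen known from Descemet's membrane of the cornea. In microglia Col27a1 led with 26.1 (SD 8.48), ahead of Col9a3 with 14.9 (SD 8.62) and Col15a1 with 8.06 (SD 2.36). Col8a2 followed with 7.68 (SD 6.05), Col8a1 with 4.51 (SD 3.23), Col6a3 with 2.54 (SD 1.27), Col4a1 with 2.08 (SD 1.22) and Col1a2 with 1.70 (SD 0.724). In this order only the gap below Col27a1 was larger than the SD of the higher gene. Col27a1 made up 43.3% of the collagen CPM in microglia on average (26.8% to 49.9%), while the largest share in astrocytes was 11%, that of Col4a1.

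Markers of matrix-producing cells were mostly higher in astrocytes, as were markers of most other cell types. Neuronal markers were called higher in 10 of 10, choroid plexus and ependyma markers in 7 of 10 and oligodendrocyte markers in 6 of 10. The choroid plexus and ependyma list was mixed. Its 3 genes not called, Ttr, Kl and Kcne2, had log2 fold changes of -0.20, -0.49 and -0.98. Among its 7 called, Clic6 and Folr1 had 0.66 and 1.31, and Foxj1 and Ccdc153 had 5.27 and 7.45. The 10 fibroblast markers, 10 of them called higher in astrocytes, summed to 70.8 to 187 CPM in microglia and to 1080 to 1560 CPM in astrocytes. Apod alone gave 838 to 1340 CPM of the astrocyte sum, and the other 9 genes summed to 30.2 to 120 CPM in microglia and to 196 to 341 CPM in astrocytes. Dcn, a defining fibroblast gene, had 20.3 to 37.6 CPM in astrocytes and 0 to 1.90 CPM in microglia. The 10 mural markers, again 10 called higher in astrocytes, summed to 9.62 to 38.2 CPM in microglia and to 385 to 536 CPM in astrocytes. The 10 endothelial markers, 5 of them called higher in astrocytes, summed to 25.8 to 102 CPM in microglia and to 37.0 to 161 CPM in astrocytes. All 10 oligodendrocyte precursor markers had log2 fold changes above 0 and 9 were called higher in astrocytes. Their sums were 27.3 to 66.1 CPM in microglia and 2070 to 2730 CPM in astrocytes. The genes gave unequal parts of the astrocyte sum, with 555 to 839 CPM for Bcan, 6.14 to 22.5 CPM for Cspg4 and 0 to 2.53 CPM for Gpr17. Border macrophage markers went the other way, with 10 of 10 called lower in astrocytes and sums of 822 to 1320 CPM in microglia against 15.6 to 47.7 CPM in astrocytes. Over all genes 36.4% were called higher in astrocytes and 28.2% lower. In microglia 5 of the 10 fibroblast, 7 of the 10 mural, 9 of the 10 endothelial and 6 of the 10 precursor markers pass the filter on low counts. So do 7 of the 10 choroid plexus and ependyma markers, all but Enkur, Rarres2 and Tmem212. The others pass only through their astrocyte libraries, so a higher level there was built into their being tested. Likewise only 7 of the 10 border macrophage markers pass in astrocytes. The part of any of these cell types in the collagen levels of either sort was not tested.

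KPNA4 KO and WT microglia were compared as the genotype contrast that the choice of the family did not use, although the mice are the same. Collagen log2 fold changes lay mostly below 0 in KO microglia, and no gene was called. Of 14191 genes tested, 0 passed an adjusted p of 0.05 with edgeR's quasi-likelihood test, 0% of all genes, and 1053 had an unadjusted p under 0.05. DESeq2 called 41 genes and limma voom 0, none of them a collagen. Of the 27 collagen genes that passed the filter on low counts, 25 had a log2 fold change of KO over WT below 0, and the median was -0.98. Over all genes 50.1% lay below 0 and the median was -0.0013. An unadjusted p under 0.05 was reached by 7 members, all lower in KO, against 5.07% of all genes lower and 2.35% higher. These 7 were 25.9% of the 27 tested. All 3 KO libraries lay below all 3 WT libraries in 9 members, 33.3% of those tested, against 6.57% of all genes. In 0 members did they lie above, against 6.53% of all genes. Of the 9, Col5a2 had 2, 4 and 7 counts and Col6a2 7, 8 and 10 counts in KO libraries. Col16a1 had 2, 25 and 7, and Col18a1 6, 5 and 53. These KO counts would not pass the filter on their own, so a lower level in KO was partly built into these genes being tested. Col6a2, Col16a1 and Col18a1 are also among the 7.

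Col8a2 and Col9a3 had the smallest p among the members. Col8a2 had 15.5, 18.2 and 39.4 CPM in WT and 4.17, 5.77 and 13.5 CPM in KO microglia, with replicate 3 the highest library of either genotype. Its log2 fold change was -1.65 (SE 0.45, adjusted p = 0.539 by edgeR). Col9a3 had 41.3, 37.5 and 52.7 CPM in WT and 6.78, 12.6 and 31.5 CPM in KO microglia, a log2 fold change of -1.39 (SE 0.41, adjusted p = 0.542 by edgeR). Without the low-count filter both were called, with adjusted p = 0.0018 for Col8a2 and 0.00041 for Col9a3 by edgeR. For both genes the KO libraries lay below the WT libraries without overlap, and KO replicate 3 was the nearest to WT. Col4a1 had 17.6, 8.25 and 18.6 CPM in WT and 4.26, 6.02 and 7.71 CPM in KO microglia, a log2 fold change of -1.32 (SE 0.41, adjusted p = 0.551 by edgeR). Col6a2 had 3.09, 3.05 and 4.79 CPM in WT and 0.678, 0.669 and 0.689 CPM in KO microglia, a log2 fold change of -2.43 (SE 0.83, adjusted p = 0.587 by edgeR). The 3 KO libraries of Col6a2 held 7, 8 and 10 counts, so its level there rests on few molecules.

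Of the 3 genes chosen in astrocytes, Col16a1 and Col11a2 could be tested in microglia. Col16a1 had 6.11, 2.42 and 3.96 CPM in WT and 0.194, 2.09 and 0.482 CPM in KO microglia, a log2 fold change of -2.18 (SE 0.93, adjusted p = 0.638 by edgeR). Col11a2 had 7.61, 4.67 and 3.19 CPM in WT and 2.04, 1.25 and 1.24 CPM in KO microglia, a log2 fold change of -1.80 (SE 0.68, adjusted p = 0.614 by edgeR). Neither overlapped between the genotypes, and neither was called. Col16a1 passed the filter on low counts mainly through its WT libraries, with 2, 25 and 7 counts in KO microglia. Col5a3 did not pass the filter in microglia, where it had 3.02, 0.0897 and 3.27 CPM in WT and 0, 0.335 and 0.138 CPM in KO libraries. Col9a2, also below the filter, had 6, 5 and 6 counts in WT and 0 counts in each KO microglia library, where a count of 0 allows up to 3.

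By class, all 5 collagen IV genes tested and all 5 FACIT genes tested had log2 fold changes below 0 in KO microglia, with medians of -1.27 and -0.74. Of 8 fibrillar genes tested, 7 lay below 0, with a median of -0.68. The 4 members called higher in microglia than in astrocytes lay closer to 0. Col27a1 had 230, 162 and 106 CPM in WT and 106, 125 and 137 CPM in KO microglia, a log2 fold change of -0.47 (SE 0.26) with overlapping libraries. Col15a1 had 52.5, 28.6 and 31.5 CPM in WT and 26.1, 30.6 and 29.1 CPM in KO microglia, a log2 fold change of -0.42 (SE 0.27). Col6a3 and Col14a1 had log2 fold changes of -0.48 (SE 0.39) and -0.07 (SE 0.52). Summed over the family, the CPM were 505, 373 and 393 in WT and 216, 250 and 306 in KO microglia.

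**Figure D4:**
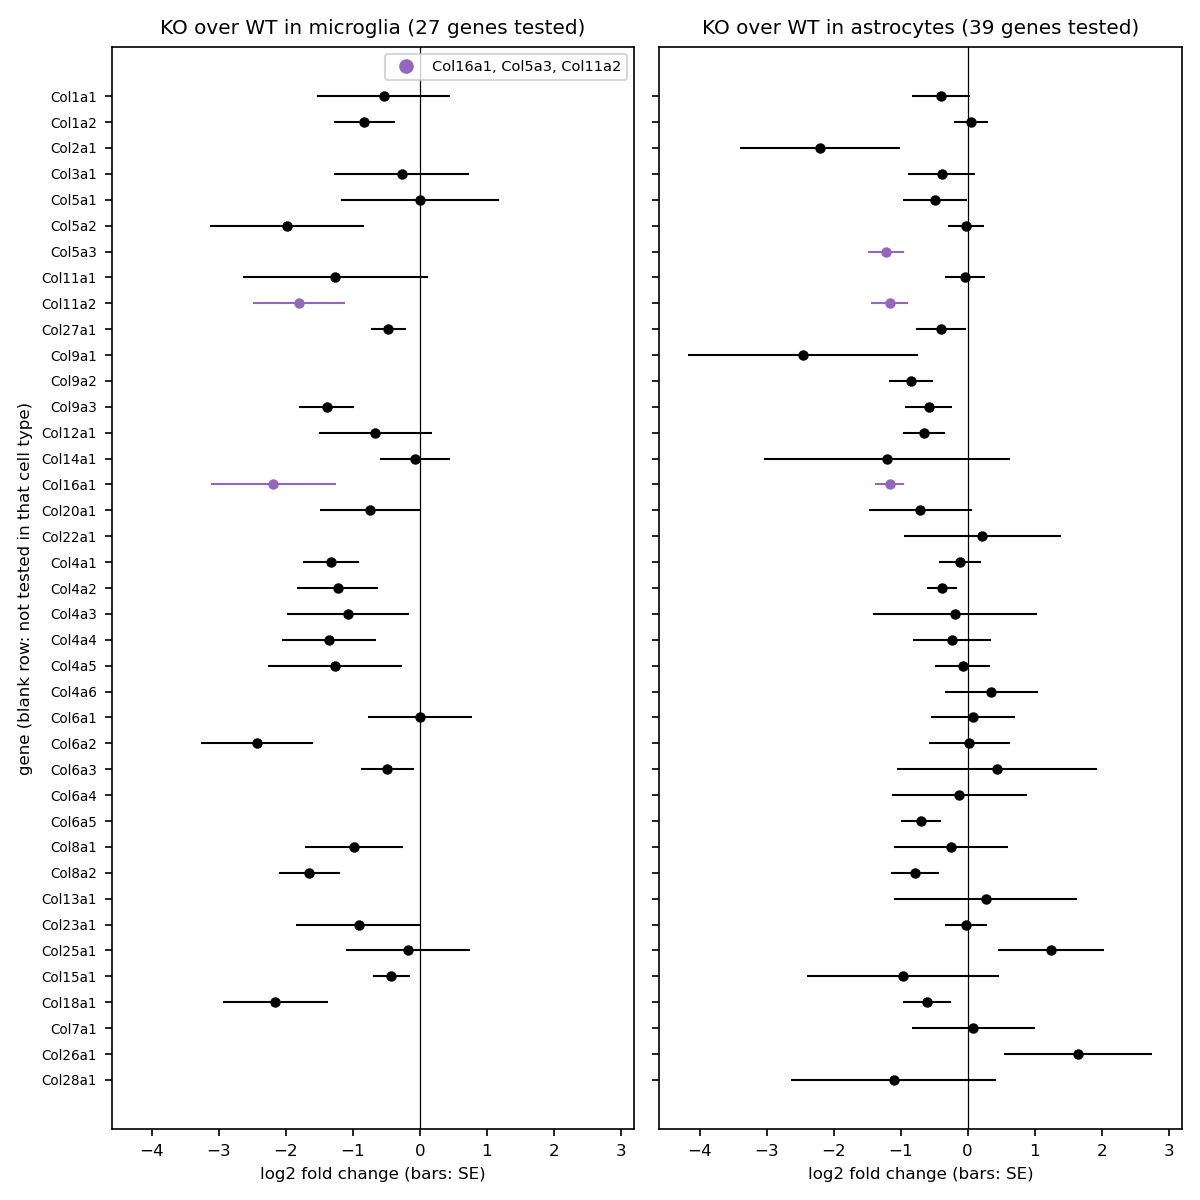
Log2 fold change of KPNA4 KO over WT (points, bars for the SE, 3 against 3 libraries) in microglia (left, 27 genes tested) and astrocytes (right, 39 genes tested), with Col16a1, Col5a3 and Col11a2 in purple. In microglia 25 of 27 genes lie left of 0, and in astrocytes 29 of 39.

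The libraries of the 2 cell types come from the same mice, and the astrocyte values include those by which the family was chosen, so the values are set side by side with no count of shared directions. Some members far below 0 in KO microglia were near 0 in astrocytes. Col6a2 had -2.43 (SE 0.83) in microglia and 0.02 (SE 0.60) in astrocytes, and Col5a2 had -1.99 (SE 1.15) and -0.02 (SE 0.27). Col4a1 had -1.32 (SE 0.41) and -0.12 (SE 0.31). Col8a2 and Col18a1 lay between, with -1.65 and -2.15 in microglia and -0.79 and -0.61 in astrocytes. The difference between the cell types is part of what led to the choice of the family and was not tested for these genes.

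Markers of several other cell types had log2 fold changes mostly below 0 in KO microglia, and none was called. The choroid plexus and ependyma markers summed to 891, 1123 and 2228 CPM in WT and to 361, 557 and 907 CPM in KO microglia, with 6 of 7 tested below 0. Ttr, the main choroid plexus transcript, had 784, 987 and 1934 CPM in WT and 327, 502 and 795 CPM in KO microglia. Within each genotype replicate 3 was highest and replicate 1 lowest for Ttr, as for Col8a2. Ttr overlapped between the genotypes, which Col8a2 did not. Col9a3 had the same order in KO but not in WT microglia, where replicate 2 was lowest. Endothelial markers lay below 0 in 9 of 9 tested, with sums of 25.8 to 102 CPM in WT and 26.0 to 35.7 CPM in KO microglia. Mural markers lay below 0 in 6 of 7 tested, with sums of 22.1 to 38.2 and 9.62 to 25.6 CPM. Fibroblast markers lay below 0 in 4 of 5 tested, with sums of 75.9 to 187 and 70.8 to 109 CPM, while Lum had 0 counts in all KO microglia libraries. Astrocyte markers lay below 0 in 10 of 10, with sums of 334 to 726 and 351 to 387 CPM. Border macrophage markers lay below 0 in 4 of 10, with sums of 1130 to 1320 and 822 to 1030 CPM, and microglia markers in 4 of 10. Neuronal markers lay below 0 in 8 of 10 and oligodendrocyte precursor markers in 5 of 6. Oligodendrocyte markers lay below 0 in 5 of 10, with sums of 290 to 1760 and 325 to 810 CPM. The part of these cells in the lower collagen levels of KO microglia was not tested.

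**Figure D5:**
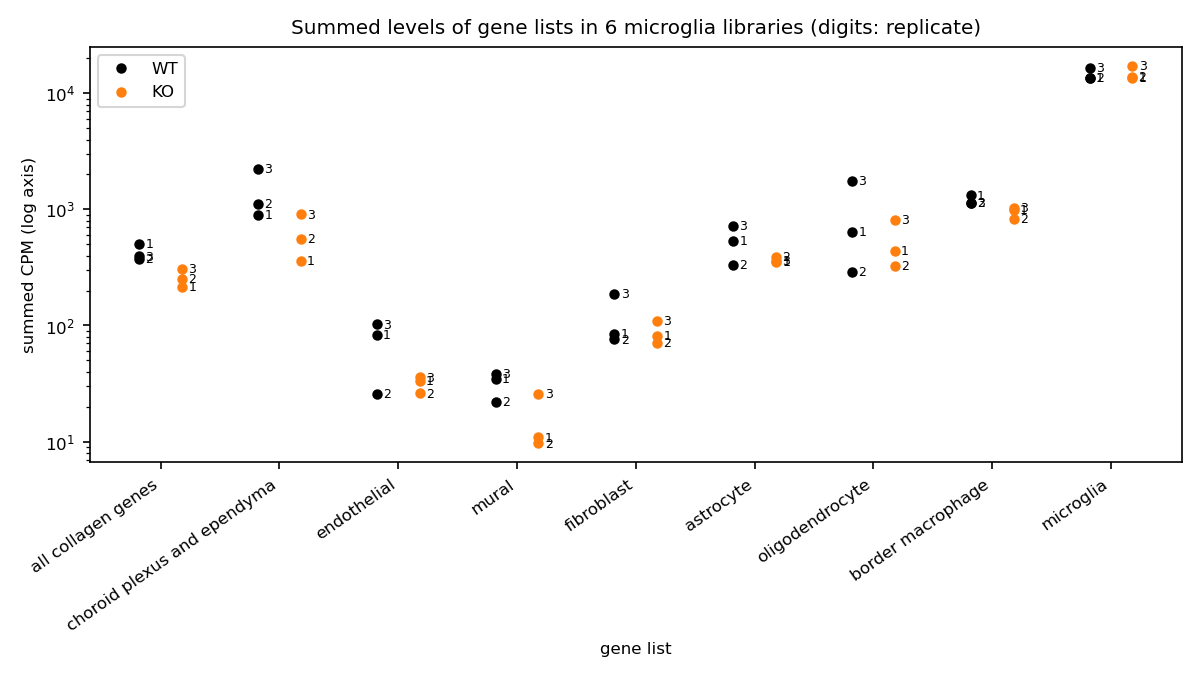
Summed CPM (log axis) of the collagen family and of 8 marker lists of 10 genes each in the 6 microglia libraries, WT in black and KPNA4 KO in orange, with the replicate number beside each point. The collagen sum and the border macrophage sum are lower in each KO library than in any WT library, while the sums of the choroid plexus, endothelial, mural, fibroblast, astrocyte and oligodendrocyte lists overlap. Of the 10 border macrophage markers, 4 had log2 fold changes below 0 and 6 above 0, so the lower sum does not describe most of them.

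The enzymes that modify and fold collagen chains differed in both directions between the cell types. Of 17 genes tested, 8 were called higher in astrocytes and 7 lower, with edgeR, where 36.4% and 28.2% of all genes were called. The same shares over all genes stand beside the counts of the other lists. Plod2, P4ha3, Fkbp10 and Colgalt2, all called higher, pass the filter on low counts only through their astrocyte libraries. Of all genes that do so, 80.3% were called higher. The lysyl hydroxylases were split between the cells. Plod2 was higher in astrocytes by 7.63 on the log2 scale (SE 0.47), with 0 to 0.829 CPM in microglia and 19.0 to 45.7 CPM in astrocytes. Plod1 and Plod3 were lower in astrocytes, with log2 fold changes of -1.98 (SE 0.15, adjusted p = 3.48e-08 by edgeR) and -2.10 (SE 0.18, adjusted p = 8.05e-08 by edgeR). The galactosyltransferase gene Colgalt2 was also called higher in astrocytes, with 0 counts in all KO microglia libraries. With the floor of 3 counts per library it was at least 55-fold higher. Of the 17 genes for secretion, propeptide cleavage and cross-linking, 9 were called higher and 2 lower. Among the 9, Tll1, Adamts2, Adamts3, Adamts14 and Loxl2 pass the filter only through their astrocyte libraries. The propeptidase gene Bmp1 had a log2 fold change of 1.68, and Adamts3 was called higher with 3.02 to 5.53 CPM in astrocytes and at most 4 counts in a microglia library. Mia2, whose product helps to export collagen from the endoplasmic reticulum, had -1.53. The transcription factors Creb3l1 and Creb3l2 had log2 fold changes of 2.21 and -1.25.

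Of 11 collagen receptors tested, 5 were called higher in astrocytes and 3 lower. Itga2, among the 5, passes the filter on low counts in neither cell type alone, and had 6, 48 and 0 counts in WT astrocytes. The discoidin domain receptors Ddr1 and Ddr2, tyrosine kinases that bind fibrillar collagen, were higher in astrocytes by 4.41 (SE 0.30, adjusted p = 1.03e-08 by edgeR) and 3.70 (SE 0.36, adjusted p = 3.99e-07 by edgeR). Lair1, an inhibitory collagen receptor of immune cells, was lower in astrocytes, with a log2 fold change of -3.68 (SE 0.20, adjusted p = 8.29e-10 by edgeR). Lair1 had 224, 291 and 340 CPM in WT and 346, 330 and 441 CPM in KO microglia. The integrin chain Itgb1 was lower in astrocytes, with a log2 fold change of -1.47. Of 8 genes of collagen breakdown, 5 were called higher in astrocytes and 3 lower. Ctsk and Timp1, among the 5, pass the filter only through their astrocyte libraries. Mmp9, among the 3, passes only through its microglia libraries. The protease inhibitors Timp3 and Timp4 were higher by 5.33 and 6.94, and the gelatinase gene Mmp2 and the inhibitor Timp2 had log2 fold changes of -3.72 and -1.13. Of 12 partners of collagen IV in basement membranes, 9 were called higher in astrocytes and 1 lower. Lama1, among the 9, passes the filter only through its astrocyte libraries. The laminin chains Lamb2, Lama2 and Lamc1 were higher by 2.93, 5.54 and 2.52, and Nid1, which links laminin to collagen IV, by 4.57.

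Between KO and WT, 0 genes of these 5 lists were called in either cell type with edgeR. In microglia the basement membrane partners lay below 0 in 10 of 11 tested, with a median of -0.99 on the log2 scale, and 4 of them had an unadjusted p under 0.05, all lower, where 50.1% of all genes lay below 0 and 5.07% were lower at that p. Lamb2 had 31.3, 27.1 and 22.9 CPM in WT and 12.5, 11.5 and 15.4 CPM in KO microglia, a log2 fold change of -1.07 (adjusted p = 0.491 by edgeR). Agrn had 64.3, 42.7 and 49.6 CPM in WT and 33.0, 21.8 and 30.3 CPM in KO microglia, a log2 fold change of -0.91 (adjusted p = 0.539 by edgeR). For both genes the KO libraries lay below the WT libraries. Loxl1, a cross-linking enzyme, had 3.62, 5.29 and 8.37 CPM in WT and 0.872, 1.42 and 0.689 CPM in KO microglia (adjusted p = 0.539 by edgeR). Serpinh1, the collagen chaperone, had 7.16, 4.22 and 19.8 CPM in WT and 0.872, 1.92 and 4.61 CPM in KO microglia (adjusted p = 0.583 by edgeR). The Serpinh1 libraries overlapped, with KO replicate 3 above WT replicate 2. The collagen uptake receptor Mrc2 had a log2 fold change of -0.75 (adjusted p = 0.587 by edgeR). Pcolce2, Ddr2, Timp4, Timp3 and Plod3, the other genes with the smallest p of their lists, had log2 fold changes of -2.12, -1.77, -2.14, -0.88 and -0.37. In astrocytes the medians of the 5 lists between KO and WT lay between -0.15 and 0.05.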

How the data were processed

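RNA of 12 libraries (2 cell types, 2 genotypes, 3 mice each) was analysed from 1 table of estimated counts per gene symbol and cell type that the authors deposited, not normalized. Per the submitters' processing notes, STAR 2.7.10b, RSEM 1.3.3, limma and the build GRCm39 were used, with settings not stated there. Per the labels' protocols, full-length cDNA was amplified, which keeps no strand and counts no molecular identifiers. All value columns matched a library by name.

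Estimated counts were rounded. Levels are CPM, scaled to the library total. Genes were filtered with filterByExpr (minimum count 10), scaled by TMM and tested with edgeR 4.0.16 in R 4.3.3 (glmQLFit, glmQLFTest), and p-values were adjusted by the Benjamini-Hochberg method over all genes tested; the SE is the log2 fold change divided by the square root of F. KO and WT were fitted within a cell type on 6 libraries, and cell types on all 12 libraries, averaged over genotypes. Alternatives used DESeq2 1.42.0 and limma 3.58.1. The fits were tested on simulated data. Coding lengths came from a GRCm38 annotation by symbol, and promoter windows from RefSeq.

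The members and lists were chosen with earlier results of these data known. No p between cell types is printed for members or list genes that pass the filter only through their astrocyte libraries. The genes named are Col16a1, Col5a3 and Col11a2, the 8 members highest per coding length in each cell type, members called between cell types (full values for the 8 smallest adjusted p per direction), the 4 members with the smallest p in microglia, the collagen IV pairs and, per list, up to 4 genes by adjusted p between cell types and 2 by p in microglia. Col9a1, Col9a2, Col2a1, Col11a1, Col5a2 and Col18a1 in the genotype contrasts were named, and members split by the cell type in which they pass the filter, after their values were seen.

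The labels give 1 animal number to each microglia and astrocyte library pair, so the cell type contrast can be blocked by mouse. Deviations from the group means correlated by 0.002 to 0.109 within a mouse. P-values between genotypes measure the spread between mice.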

Additional observations from a re-analysis of the deposited data

How the results depend on the processing

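The 30 collagen genes called higher in astrocytes became 22 to 31 and the 4 called lower 3 to 5 over all alternatives, and the 24 to 30 and 4 to 5 seen when 1 mouse was left out lie within that range. In microglia the 0 collagen genes called between KO and WT became 2 without the low-count filter (Col8a2 and Col9a3) and 1 with all 12 libraries in one fit (Col9a2), and the 0 genes of all became 121 and 41. DESeq2 called 41 genes and no collagen. With a replicate block, KO and WT microglia gave 30 genes, among them 1 collagen, Col8a2. The replicate number is not given as a shared litter or day. Correlations of same-numbered KO and WT libraries were 0.05 to 0.20 in microglia, where 6 of 6 libraries were closest to their own number, and -0.03 to 0.26 in astrocytes, where 2 of 6 were, so the numbers are not taken to pair the mice. Leaving out 1 library gave 0 to 2 genes called in microglia, with 0 collagens. The block changed no other call than those given in the text for the cell types. The median of the members in KO over WT astrocytes ranged from -0.54 to -0.09 when 1 library was left out. Of the values of single genes that were still tested, 620 stayed the same, 36 lost a call, 3 gained one and none changed direction. The same meant the same side of the threshold or, for Col16a1, Col5a3 and Col11a2 in astrocytes, within the SD between libraries. Calls lost because a gene was no longer tested are not among the 36. The floors cover counting error only, and members with few counts in microglia limit what could be called there.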
